A study of Mus musculus with 16 samples.

Results

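Cytosolic ribosomal protein genes encode the proteins of the 2 subunits of the ribosome that translates nuclear-encoded mRNAs. They were followed here in the livers of oxaliplatin-treated mice with or without the clock repressors Cry1 and Cry2. The members were the gene rows whose symbol is Rplp0, Rplp1, Rplp2 or Rpsa, or Rpl or Rps followed by a number and at most the letter a or x, with pseudogene symbols left out. The rule uses names only. It gave 76 of the 40840 genes in the count table, 46 of the large and 30 of the small subunit. Ribosomal proteins with other symbols, such as Rps3a1 and Fau, are outside the rule.

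All mice were male C57BL/6J animals aged 12 to 16 weeks and were either Cry1-/- Cry2-/- (CryDKO), bred from heterozygous parents, or wild type (WT). They were kept under a 12 h light and 12 h dark cycle for 3 weeks and then in constant darkness, which began 3 days before the drug. Every animal was given oxaliplatin, a platinum drug that damages DNA, at 12 mg/kg into the peritoneum. The treatment protocol gives dosing on 3 consecutive days, while the series text also speaks of a single dose. The drug was given at circadian time (CT) 8 or 16. The 4 groups were CryDKO CT16, CryDKO CT8, WT CT16 and WT CT8, with 4 poly(A) RNA-seq libraries of liver each. There was no untreated group, no source used here gives the time of liver collection, and no label says that the libraries of a group came from separate animals. The p-values therefore measure the spread between these libraries, which may be technical in part.

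Ribosomal protein mRNAs are among the most abundant in liver. Many of them begin with a 5′ terminal oligopyrimidine (TOP) tract, a C followed by an unbroken run of pyrimidines, through which the kinase mTOR and the protein LARP1 control their translation and stability together. Free ribosomal proteins such as Rpl5 and Rpl11 can bind MDM2, the ligase that degrades p53, when ribosome assembly is disturbed. In mouse liver, ribosome production is known to follow a daily rhythm.

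The sequence at the annotated start was searched for a feature that members might share beyond their names. A promoter was in the RefSeq table (build GRCm38.p6) for 56 of the 76 genes. A run of at least 8 C or T bases beginning with C, on the transcribed strand between 10 bases before and 20 bases after the start, was found in 23 of the 56, or 41.1%. It was found in 5 of 69 mitochondrial ribosomal protein genes (7.2%) and in 2728 of all 27025 genes with a promoter (10.1%). The windows below run from 30 bases before to 20 bases after the start, 5′ to 3′, with that run in capitals. They are shown for genes named in the comparisons, first 5 with such a run in the searched span and then 3 without one there.
Rpl35 (chr2:39005112-39005161, reverse strand): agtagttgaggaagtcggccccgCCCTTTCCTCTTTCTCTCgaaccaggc
Rpl35a (chr16:33056452-33056501, forward strand): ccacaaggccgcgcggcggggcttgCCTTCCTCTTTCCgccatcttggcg
Rplp2 (chr7:141447621-141447670, forward strand): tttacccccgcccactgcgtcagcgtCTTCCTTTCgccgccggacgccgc
Rps24 (chr14:24490648-24490697, forward strand): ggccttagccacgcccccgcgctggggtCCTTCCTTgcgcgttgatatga
Rps6 (chr4:86857348-86857397, reverse strand): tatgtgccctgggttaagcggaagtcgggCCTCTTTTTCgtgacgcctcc
Rplp0 (chr5:115559437-115559486, forward strand): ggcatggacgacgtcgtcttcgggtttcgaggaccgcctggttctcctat
Rpl23 (chr11:97782420-97782469, reverse strand): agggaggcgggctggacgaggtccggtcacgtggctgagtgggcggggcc
Rps25 (chr9:44407684-44407733, forward strand): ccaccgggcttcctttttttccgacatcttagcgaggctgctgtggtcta
The run is a match of letters and was not tested as a regulatory site. No run says only that these letters are not in the searched span; the window of Rps25 shows a pyrimidine run further upstream, which begins before that span.

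Base composition also differed among the members. The first 90 coding bases of 4 genes that recur in the results, from the GENCODE vM21 transcripts, are given with G and C in capitals. The first pair was higher and the second pair lower in CryDKO livers at CT8.
Rpl8 (chromosome 15): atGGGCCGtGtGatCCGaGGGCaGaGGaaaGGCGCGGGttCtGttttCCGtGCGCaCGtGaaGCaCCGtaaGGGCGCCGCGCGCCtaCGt
Rpl3 (chromosome 15): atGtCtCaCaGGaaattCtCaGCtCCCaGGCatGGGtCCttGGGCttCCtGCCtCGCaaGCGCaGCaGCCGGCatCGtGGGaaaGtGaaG
Rps24 (chromosome 14): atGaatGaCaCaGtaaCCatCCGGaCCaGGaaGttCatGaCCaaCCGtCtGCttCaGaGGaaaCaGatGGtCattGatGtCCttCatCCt
Rps25 (chromosome 9): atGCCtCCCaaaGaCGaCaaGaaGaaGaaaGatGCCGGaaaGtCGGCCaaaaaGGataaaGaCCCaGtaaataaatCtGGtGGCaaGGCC
G and C made up 59 of the 90 bases in Rpl8, 53 in Rpl3, 42 in Rps24 and 42 in Rps25. Over the whole coding sequence the share was 58.8% in Rpl8, 51.6% in Rpl3, 45.5% in Rps24 and 48.5% in Rps25. These pairs do not stand for all members. Rpl35, also lower at CT8, had 54.7%, while Rps4x and Rpl23, both higher, had 47.7% and 49.0%.

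Library totals ranged from 18083916 to 29934138 counted reads. Values are counts per 1000000 reads (CPM) after TMM scaling, edgeR's correction of library totals for composition, unless a share of reads is named. The labels were checked on the clock genes. Cry2 ranged over 23.1 to 33.3 CPM in the 8 CryDKO-labelled libraries, below the 39.9 to 58.9 CPM of the 8 WT libraries. Reads of Cry1 ran the other way, at 20.5 to 29.0 CPM in CryDKO-labelled and 5.14 to 15.9 CPM in WT libraries, higher in the livers labelled as lacking it. Arntl, a clock activator that CRY proteins repress, was at 5.48 to 14.3 CPM in CryDKO and 0.94 to 3.53 CPM in WT libraries. Such whole-gene values separate the genotypes but cannot check the deletions themselves. The defining hepatocyte markers were abundant in every library, with Alb alone at 6.28% to 9.63% of reads in CryDKO and 4.11% to 5.80% in WT libraries. One library, WT CT16 number 8, resembled the WT CT8 libraries in its TMM factor, 1.203 against 1.131 to 1.241 there and 0.812 to 1.023 in all others. The counts of members in the comparisons that use it, and the differences in the sum, are given with and without it. Log2 changes of single genes and the counts of related lists and markers are from the fit with all libraries.

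The pool of ribosomal protein mRNA was of similar size in all 4 groups on the TMM scale. Summed over the 76 genes, it was 17133, 20134, 17668 and 21134 CPM in the CryDKO CT16 libraries and 19490, 21690, 20524 and 16207 CPM in the CryDKO CT8 libraries. It was 13435, 20096, 16493 and 21603 CPM in the WT CT16 libraries and 19262, 16141, 20687 and 21440 CPM in the WT CT8 libraries. Every group overlapped every other, and WT CT16 held both the lowest library and one of the highest. The sums averaged 19017 ± 1923 CPM in CryDKO CT16, 19478 ± 2358 CPM in CryDKO CT8, 17907 ± 3672 CPM in WT CT16 and 19383 ± 2342 CPM in WT CT8 (SD, n = 4 each). On the log2 scale, CryDKO minus WT was +0.11 at CT16 and +0.01 at CT8, and CT16 minus CT8 was -0.03 in CryDKO and -0.13 in WT. With all libraries, these 4 differences were smaller than the SD of 0.21 between libraries of a group. Without WT CT16 library 8, the highest of its group, CT16 minus CT8 in WT was larger in size than this SD. The difference between the genotypes at CT16 also grew without it.

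**Figure D1:**
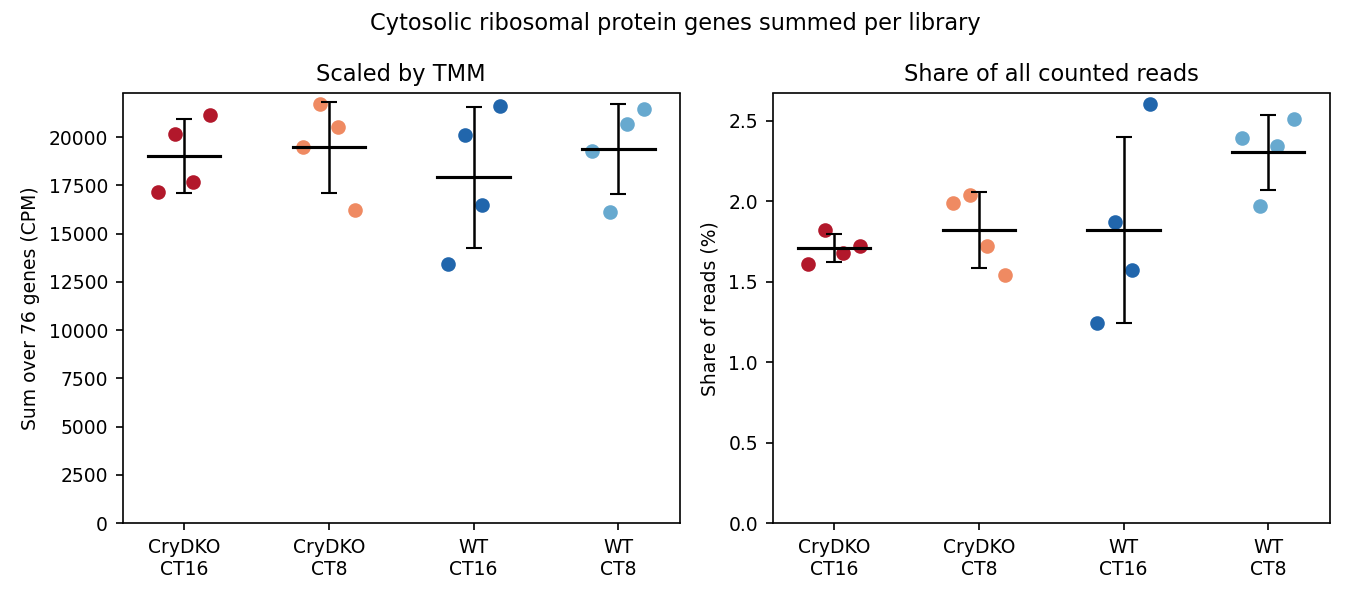
Ribosomal protein genes summed per library by group, as TMM-scaled CPM on the left and as the share of all counted reads in % on the right; points are libraries, lines the mean and bars the SD of 4 libraries. The scaled sums of the 4 groups overlap, while the share of reads is 1.54% to 2.04% in CryDKO CT8 and 1.97% to 2.51% in WT CT8.

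Without TMM scaling the picture depended on how much of each library went to other genes. As a share of all counted reads, the members took 1.61% to 1.82% in CryDKO CT16, 1.54% to 2.04% in CryDKO CT8, 1.24% to 2.60% in WT CT16 and 1.97% to 2.51% in WT CT8. On this scale the sum in CryDKO CT8 was lower than in WT CT8 by a log2 difference of -0.34, and in WT CT16 lower than in WT CT8 by -0.39, against an SD of 0.26. The median over all tested genes shifted on the same scale to -0.36 for CryDKO against WT at CT8 and to -0.29 for CT16 against CT8 in WT. Relative to those shifts the differences in the sum were small. In tissue RNA of this kind, fewer cells of a type and less RNA per cell cannot be told apart.

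Levels per length spread widely around that pool. With reads divided by transcript length, Rpl13a had the highest mean level, 902 CPM per kb, followed by Rplp1 with 793 CPM per kb. Rpl13a is also known, in human myeloid cells, from a complex that silences inflammatory mRNAs. Rps15a was low among the tested genes, at 23.2 CPM per kb, although its mean was 119 CPM. The length was that of the annotated transcript of median length, 5130 bases for Rps15a and 495 bases for Rpl13a. Both ranks depend on that choice of transcript. Rpl28 stood apart with 4 to 18 reads per library and 0.59 CPM per kb. Ribosomes of every cell contain this protein, so the counting of its row is uncertain. Of the 76 members, 75 passed the filter on low counts and were tested. Ribosomal protein genes have many processed copies in the genome, and no source used here says how reads shared by copies were counted. The 23 pseudogene rows of these genes summed to only 20.4 to 41.6 CPM per library.

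**Figure D2:**
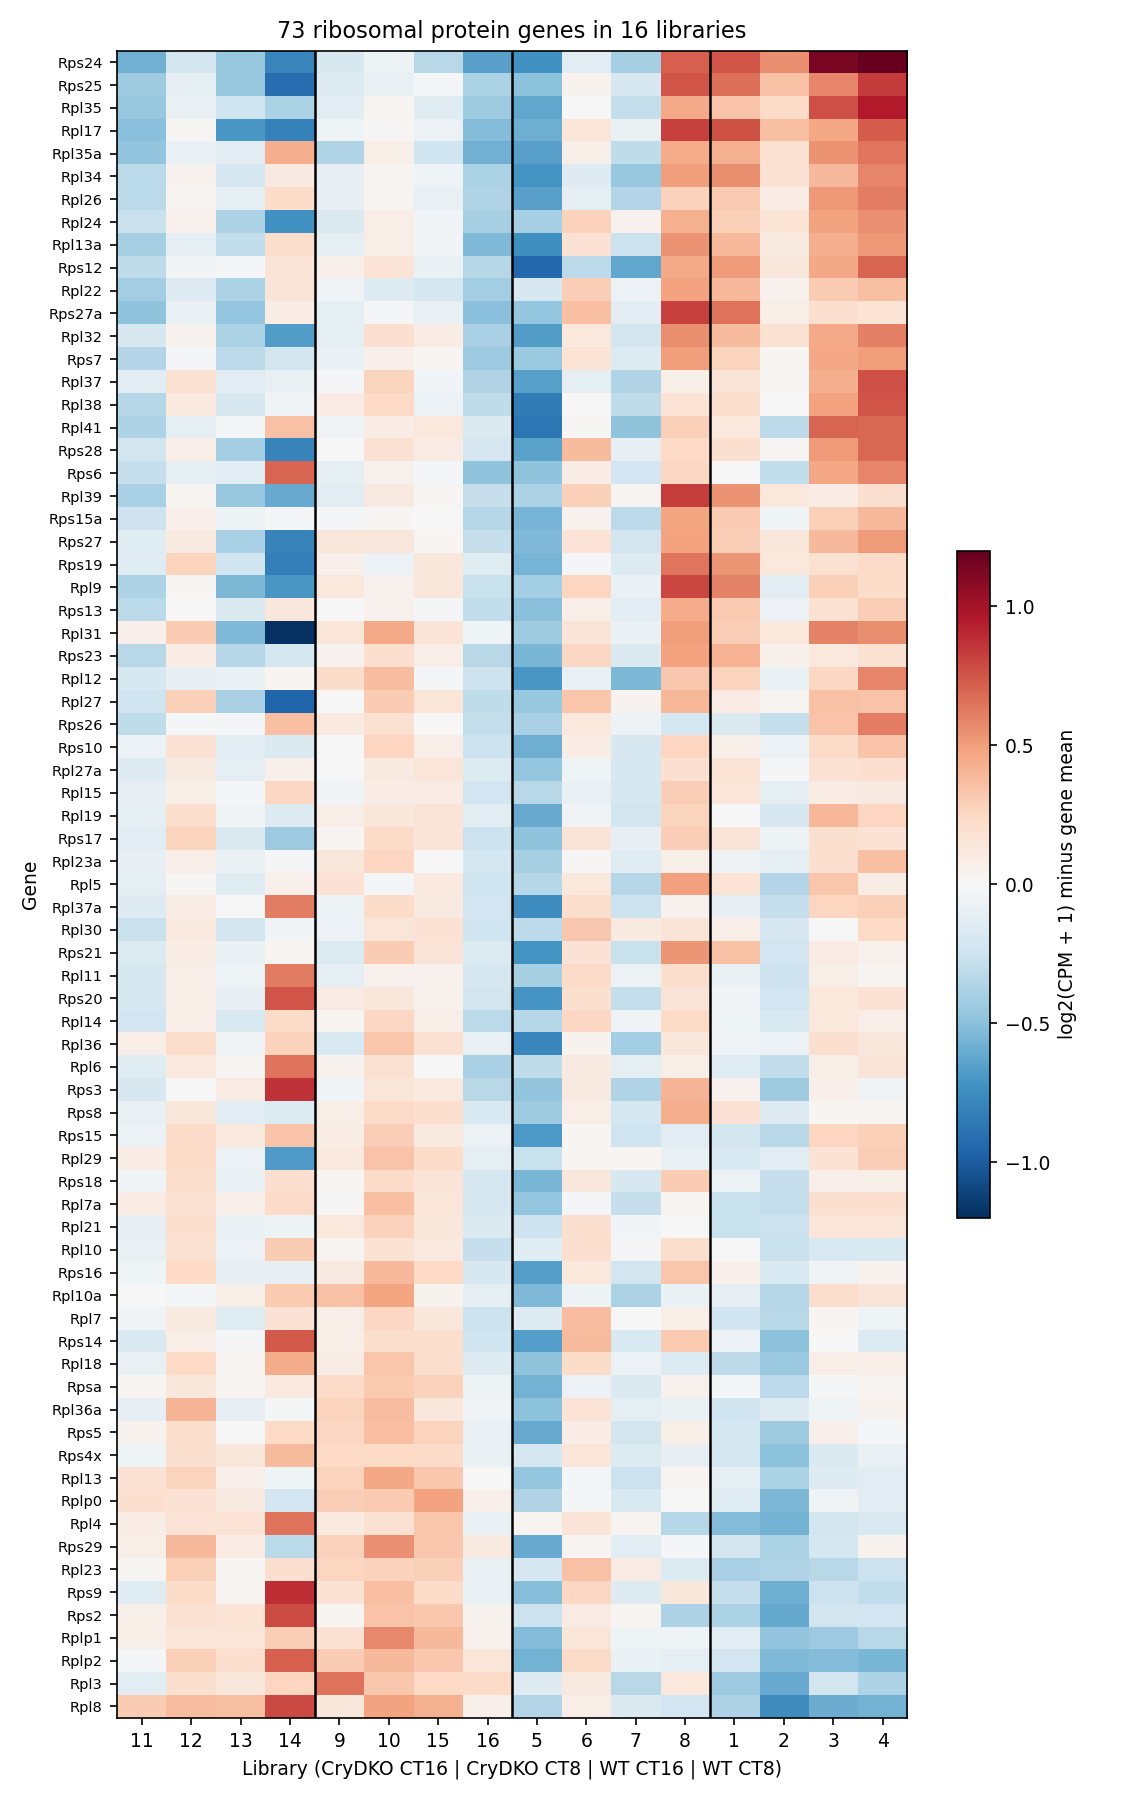
Deviation of log2(CPM + 1) from each gene's mean for 73 of the 74 members with a mean of at least 1 CPM, in 16 libraries numbered as in the count table; rows run from lower (top) to higher (bottom) by the log2 change of CryDKO against WT at CT8. Library 5 is low and library 10 high for most genes, and the bottom rows are blue in the 4 WT CT8 libraries while the top rows are red there.

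Most members moved together from library to library. Over the 16 libraries, log2 CPM of pairs of members had a median Pearson r of 0.52, and 86.1% of the 2701 pairs were positive. A member's r with the mean of the others had a median of 0.70, against 0.01 for the 14409 other tested genes with the mean of the members. These values describe 16 libraries that differ in depth and base composition, and each library gives every gene's value. A small group followed the rest least: Rpl4 with r = -0.04, Rpl8 with 0.06, Rps2 with 0.09, Rpl23 with 0.17, and Rpl3 and Rplp2 with 0.20 each. All 6 belong to the genes that were higher in CryDKO livers at CT8, described next. The correlations keep the differences between groups, so this overlap comes from the same values and is not a separate result.

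To ask whether the loss of the CRY proteins altered these mRNAs in livers dosed at CT8, CryDKO CT8 was set against WT CT8. Of the 75 tested members, 22 passed an adjusted p of 0.05 in the quasi-likelihood test of edgeR, 13 higher and 9 lower, with p-values adjusted by Benjamini-Hochberg over 14484 genes. Over all tested genes, 39.0% passed, 18.7% higher and 20.3% lower, so the members' share of 29.3% was below the background. The median log2 change of the members was -0.06, against -0.02 for all tested genes. By subunit, 9 large-subunit genes were higher and 7 lower, and 4 small-subunit genes were higher and 2 lower. The groups did not overlap for 23 members, 12 higher and 11 lower, where the same held for 39.2% of all tested genes, 18.7% higher and 20.5% lower.

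**Figure D3:**
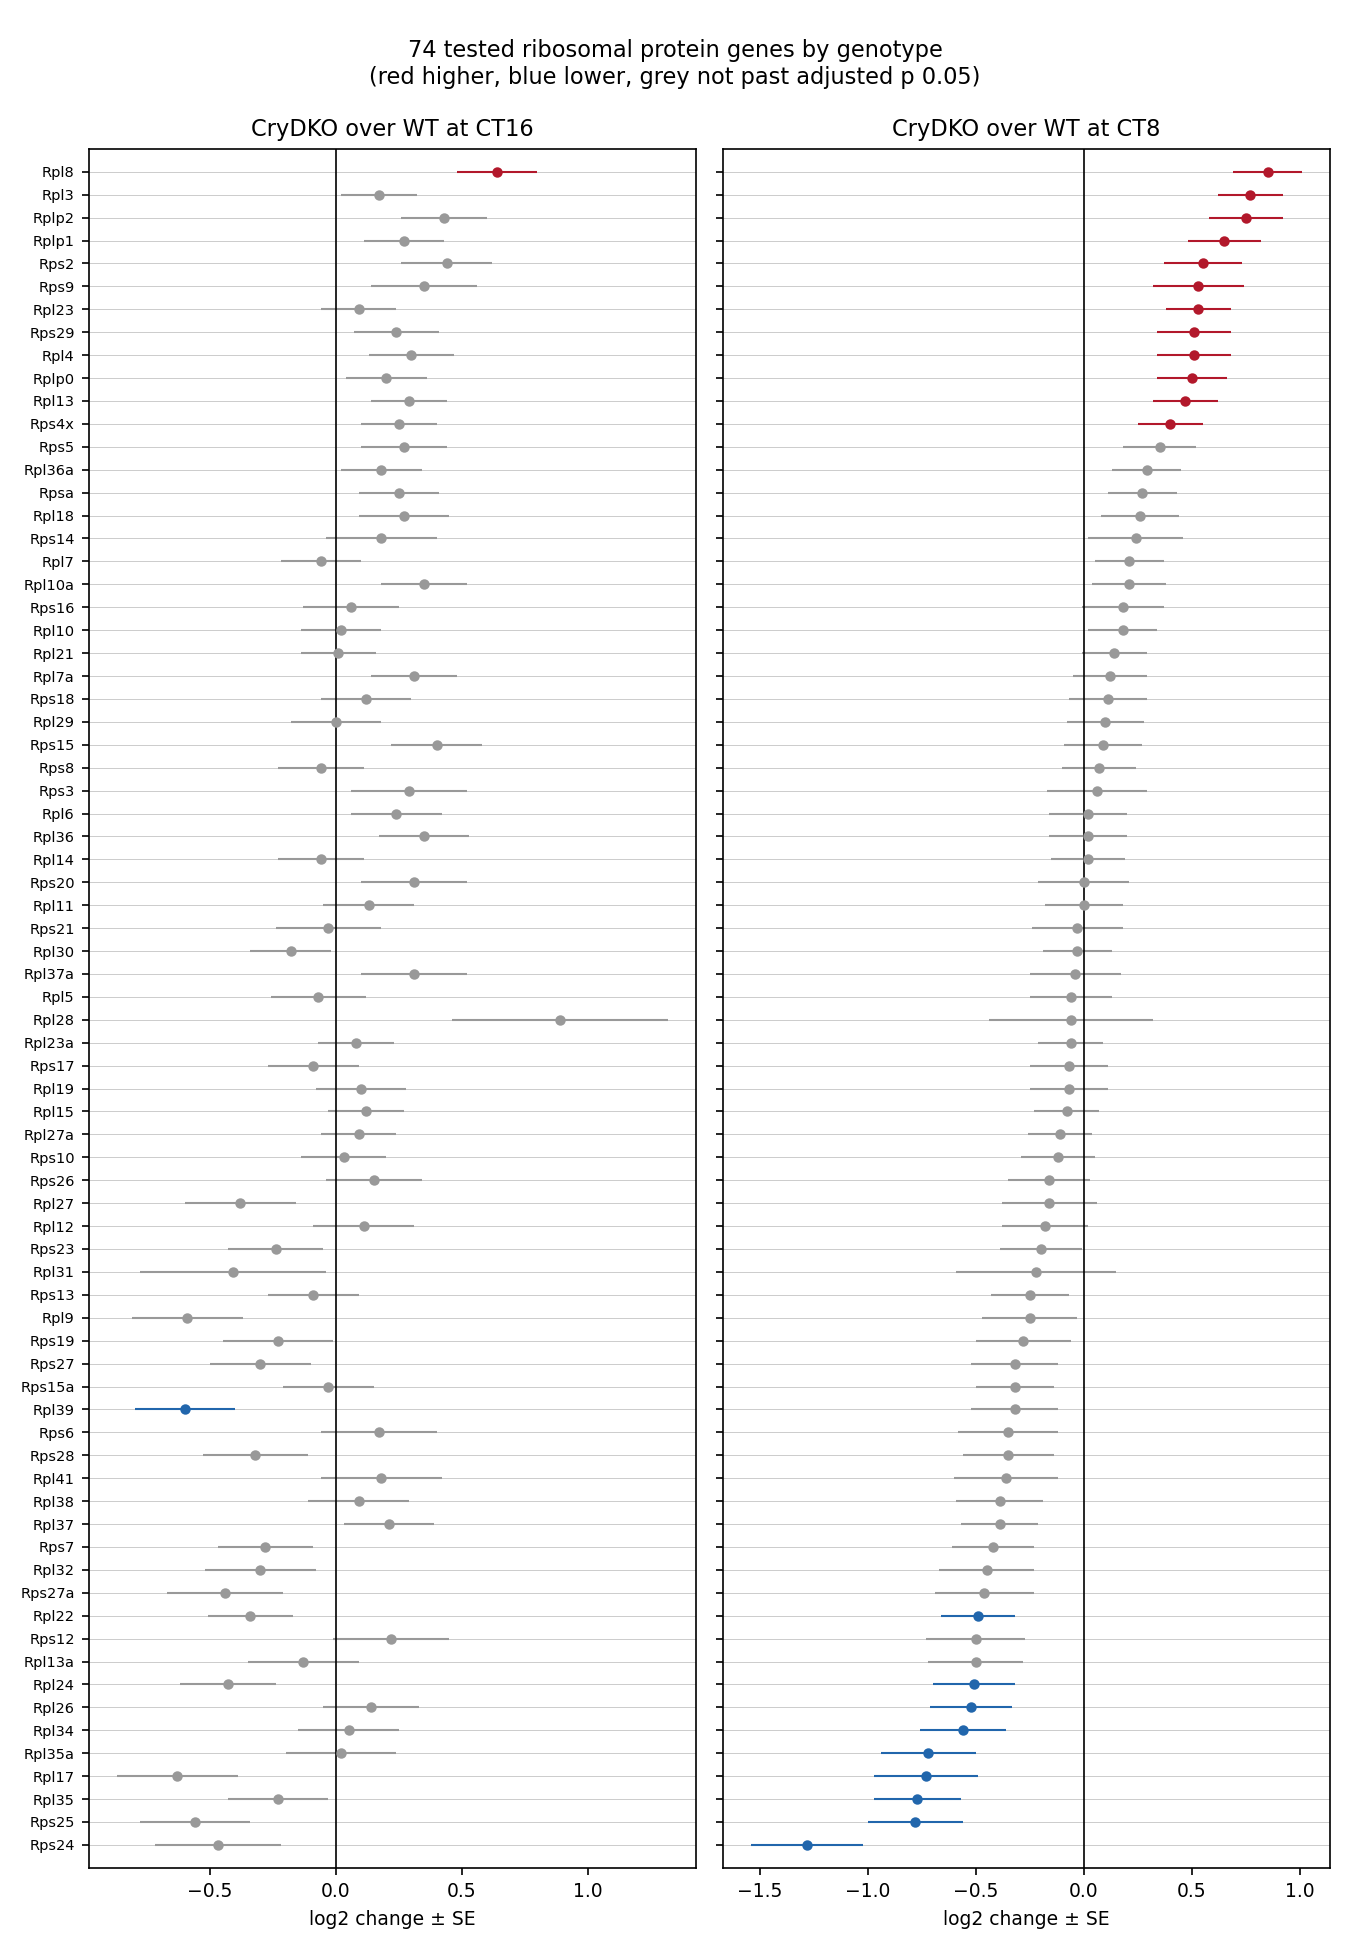
Log2 change with its SE for 74 of the 75 tested members, CryDKO over WT at CT16 on the left and at CT8 on the right, ordered by the change at CT8. At CT8, 12 of the genes drawn are red (higher) and 9 blue (lower), and at CT16 only Rpl8 and Rpl39 are coloured.

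The genes of the P-stalk, the flexible arm of the large subunit that recruits and activates translation factors, were all higher in CryDKO livers at CT8. Rplp2, one of its paired acidic proteins, had 198, 209, 199.6 and 176 CPM in CryDKO CT8, against 136, 110.0, 111 and 108 CPM in WT CT8. All CryDKO CT8 libraries lay above all WT CT8 libraries, and the log2 change was +0.75 ± 0.17 (SE; edgeR adjusted p = 0.00253). Rplp1, its partner, had 435, 578, 509 and 403 CPM in CryDKO CT8, against 356, 279, 285 and 308 CPM in WT CT8. The groups were again apart, with a log2 change of +0.65 ± 0.17 (edgeR adjusted p = 0.00476). Rplp0, which anchors the other two to the ribosome, had 741, 749.7, 843 and 631 CPM in CryDKO CT8, against 544, 416, 585 and 554 CPM in WT CT8. Its log2 change was +0.50 ± 0.16 (edgeR adjusted p = 0.0215), and the call was lost without CryDKO CT8 library 15 or WT CT8 library 2, where the adjusted p reached 0.0812 at most. It was also lost with the trend on transcript GC content removed (edgeR adjusted p = 0.0733). With library size alone as the scale, the 3 log2 changes stayed positive at +0.15 to +0.40 and none passed.

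Among the core proteins of the large subunit, Rpl8 changed most. Rpl8, which lies close to the site where peptide bonds form, had 402, 513, 491 and 382 CPM in CryDKO CT8, against 282, 218, 243 and 247 CPM in WT CT8. All 4 CryDKO CT8 libraries exceeded the highest WT CT8 library, and the log2 change was +0.85 ± 0.16 (edgeR adjusted p = 0.000617). Rpl3, which also reaches towards that site, had 359.7, 286, 269.8 and 269 CPM in CryDKO CT8, against 169, 151, 197 and 177 CPM in WT CT8. Here library 9 was highest in CryDKO CT8, the groups did not overlap, and the log2 change was +0.77 ± 0.15 (edgeR adjusted p = 0.000885). Both genes kept their call in each of the 16 fits that left out 1 library, and they were the only members called higher with library size alone. Rpl23, one of the proteins known to bind MDM2, had 309, 315, 315 and 244 CPM in CryDKO CT8, against 198, 201, 206 and 217 CPM in WT CT8. The WT CT8 libraries of Rpl23 were tightly grouped below all CryDKO CT8 libraries, with a log2 change of +0.53 ± 0.15 (edgeR adjusted p = 0.00972). Rpl13 rose by +0.47 ± 0.15 on the log2 scale (edgeR adjusted p = 0.0204), a call lost without CryDKO CT8 library 10 or WT CT8 library 2. Rpl4, Rps2, Rps4x, Rps9 and Rps29 were also higher, with log2 changes of +0.40 to +0.55. Each lost its call in 2 to 9 of the 16 fits, and WT CT8 library 2 was among the libraries whose removal ended it for all 5.

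The largest difference of the family ran the other way. Rps24, a small-subunit protein whose gene is mutated in some human patients with Diamond-Blackfan anaemia, had 213, 234, 194 and 155 CPM in CryDKO CT8, against 411, 359, 538 and 628 CPM in WT CT8. The highest CryDKO CT8 library stayed below the lowest WT CT8 library, and the log2 change was -1.28 ± 0.26 (edgeR adjusted p = 0.000914). Rps25, which certain viral internal entry sites need, had 197, 206, 217 and 168 CPM in CryDKO CT8, against 347, 280.4, 329 and 392 CPM in WT CT8. These groups did not overlap either, with a log2 change of -0.78 ± 0.22 (edgeR adjusted p = 0.00933). Rpl35, at the exit of the tunnel through which the new protein leaves, had 138, 154, 136 and 112 CPM in CryDKO CT8, against 192, 177, 259 and 292 CPM in WT CT8. All CryDKO CT8 libraries were lower, and the log2 change was -0.77 ± 0.20 (edgeR adjusted p = 0.00614). Rps24, Rps25 and Rpl35 kept their calls in all 16 fits with 1 library left out.

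**Figure D4:**
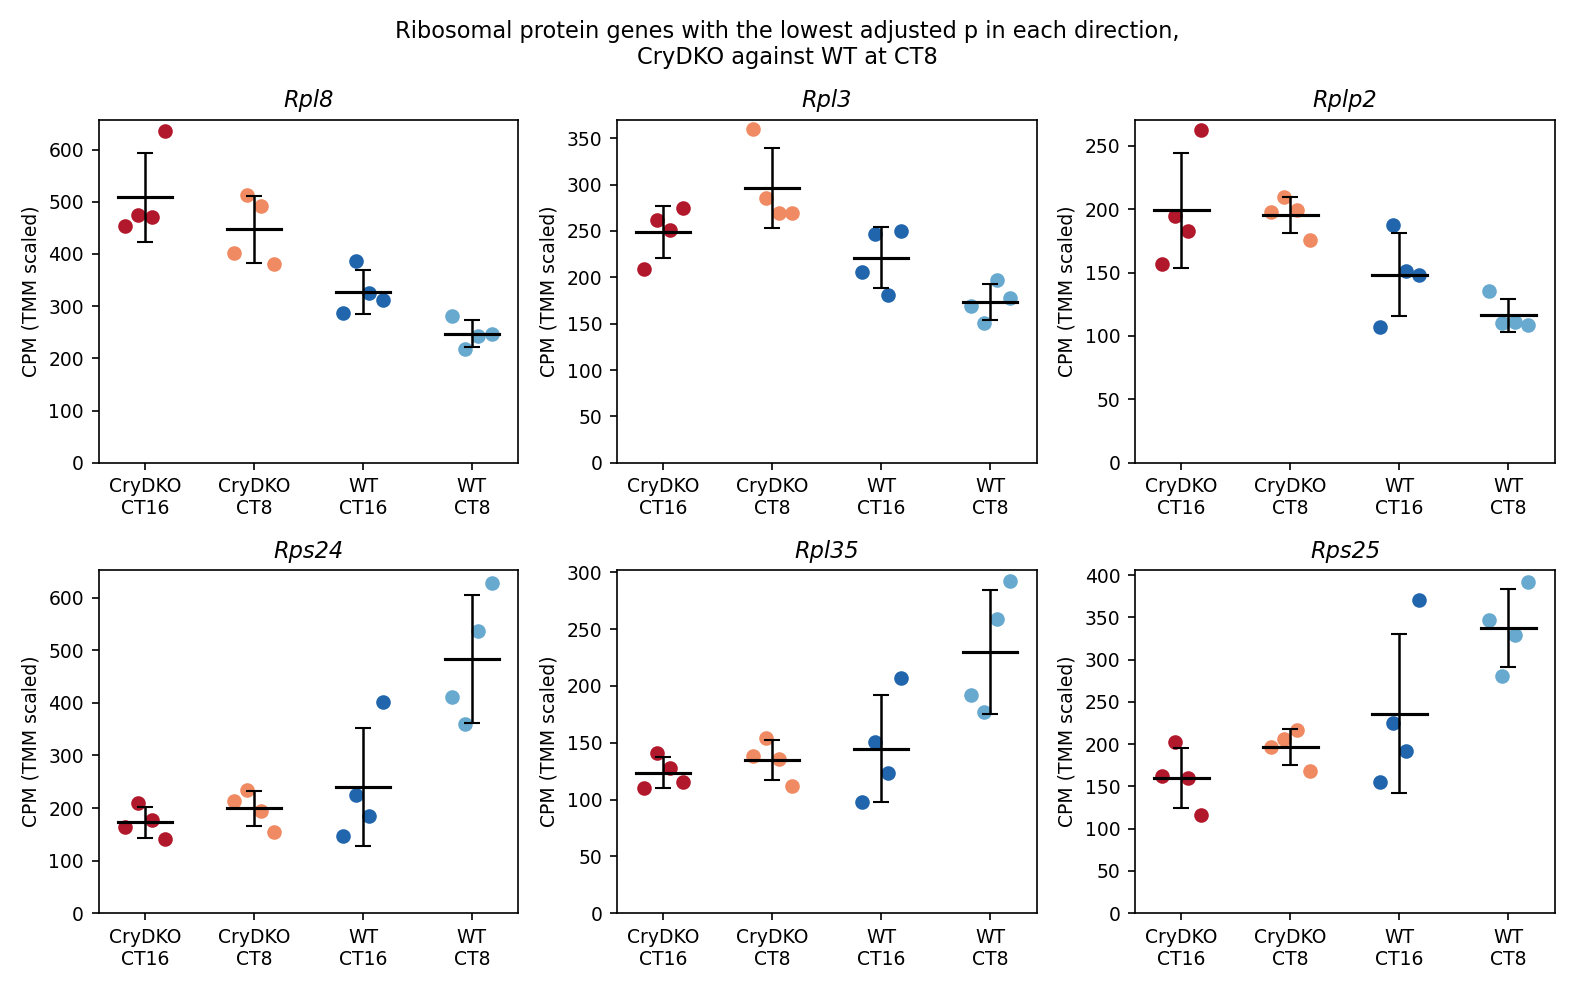
TMM-scaled CPM per library (y axis) by group (x axis) for the 3 higher and the 3 lower members with the lowest adjusted p at CT8; points are libraries, lines the mean and bars the SD of 4 libraries. Rpl8, Rpl3 and Rplp2 are above WT CT8 in every CryDKO CT8 library, and Rps24, Rpl35 and Rps25 are below it in every one, with WT CT16 library 8 next to the WT CT8 libraries for the last 3.

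Other lower members had smaller margins. Rpl17, which lines the exit tunnel, fell by 0.73 on the log2 scale (edgeR adjusted p = 0.0207), and its call was lost without CryDKO CT8 library 16 or WT CT8 library 1 or 4. Rpl35a, another gene mutated in some patients with Diamond-Blackfan anaemia, had 129.7, 175, 141 and 111 CPM in CryDKO CT8, against 224, 189, 243 and 261 CPM in WT CT8. The groups did not overlap, and the log2 change was -0.72 ± 0.22 (edgeR adjusted p = 0.0154), a call lost without CryDKO CT8 library 9 or WT CT8 library 4. Rpl22, an RNA-binding protein needed for T-cell development in mice, changed by -0.49 ± 0.17 (edgeR adjusted p = 0.0262) and lost its call in 5 of the 16 fits. Rpl24, Rpl26 and Rpl34 had log2 changes of -0.51 to -0.56 and lost theirs in 6 to 8. CryDKO CT8 libraries 15 and 16 and WT CT8 libraries 1, 3 and 4 were among the libraries whose removal ended the call for these 4 genes. Rpl35, Rpl35a, Rpl24, Rpl22 and Rps25 each overlap another annotated gene that is not a small RNA (Wdr38, Iqcg, Zbtb11, 9430083M05Rik and Ccdc84). No source used here gives the strand setting of the counting, so reads of such pairs may be mixed.

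Several members with known roles beyond the ribosome did not pass. Rps6, whose phosphorylation by S6 kinase reports mTOR activity, had 288, 322, 307 and 221 CPM in CryDKO CT8, against 311, 252, 428 and 464 CPM in WT CT8, overlapping groups with a log2 change of -0.35 ± 0.23 (edgeR adjusted p = 0.232). Rpl5 changed by -0.06 ± 0.19 (edgeR adjusted p = 0.806) and Rpl11 by +0.00 ± 0.18 (edgeR adjusted p = 0.996). Of the 7 members listed as MDM2-binding, Rpl23 was higher, Rpl26 was lower and 5 did not pass. Rpsa, also known as a precursor of the laminin receptor, changed by +0.27 ± 0.16 (edgeR adjusted p = 0.187). The abundant Rpl13a changed by -0.50 ± 0.22 (edgeR adjusted p = 0.0795) with groups that did not overlap, and Rps15a by -0.32 ± 0.18 (edgeR adjusted p = 0.164).

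The split between higher and lower members depended on the scale. With library size alone, 2 members were called higher and 25 lower, where 6.63% of all tested genes were higher and 35.4% lower. With the trend on transcript GC content removed from each library, 7 were higher and 11 lower (16.9% and 15.7% of all genes in that fit), and 16 of the 22 calls were shared with the TMM result. The calls lost there included Rplp0, Rpl13, Rps2, Rps9 and Rps29. With the trend on transcript length removed, 16 were higher and 6 lower (20.2% and 18.5% of all genes), and 19 were shared. Leaving out CryDKO CT8 library 15 gave 7 higher and 5 lower (16.3% and 17.0% of all genes). No named call changed sign under any of these settings.

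Coding length and base composition were set beside the calls at CT8, without a test. The 13 higher members had a median coding length of 633 bases and a median coding GC content of 56.5%. The lower members had medians of 379.5 bases and 49.7% (8 of the 9 with a value), and the 53 others 441 bases and 52.8% (52 with a value). The ranges overlapped, at 168 to 1257 bases and 47.7% to 59.5% in higher members and 330 to 471 bases and 45.5% to 54.7% in lower ones. A pyrimidine run near the annotated start, as defined above, was in 2 of the 8 higher members with a promoter, in 4 of the 8 lower ones and in 17 of the 40 others. Across 72 members, the log2 change at CT8 had a Spearman rho of 0.41 with coding GC content and 0.40 with coding length. The log2 change of CryDKO against WT at CT16 had 0.53 and 0.21. With transcript GC content, rho was 0.25 at CT8 and 0.31 at CT16 over 74 members, against 0.32 and 0.41 over the 13588 tested genes with a value.

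GC-rich and GC-poor members were therefore compared within each library. The 74 members were split at their median GC content of 52.2% into 37 GC-rich and 37 GC-poor genes, and the mean log2 deviation from the gene means was taken for each set. GC-rich minus GC-poor was -0.01 to 0.13 in CryDKO CT16, 0.04 to 0.13 in CryDKO CT8, -0.14 to -0.03 in WT CT16 and -0.13 to -0.05 in WT CT8. No CryDKO library overlapped a WT library. For all tested genes split the same way, it was 0.09 to 0.20 in the CryDKO libraries and -0.20 to -0.07 in the WT libraries. Base composition thus moved with genotype across all genes and not in the members alone, and its part in the calls above was tested only through the fit with the GC trend removed.

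**Figure D5:**
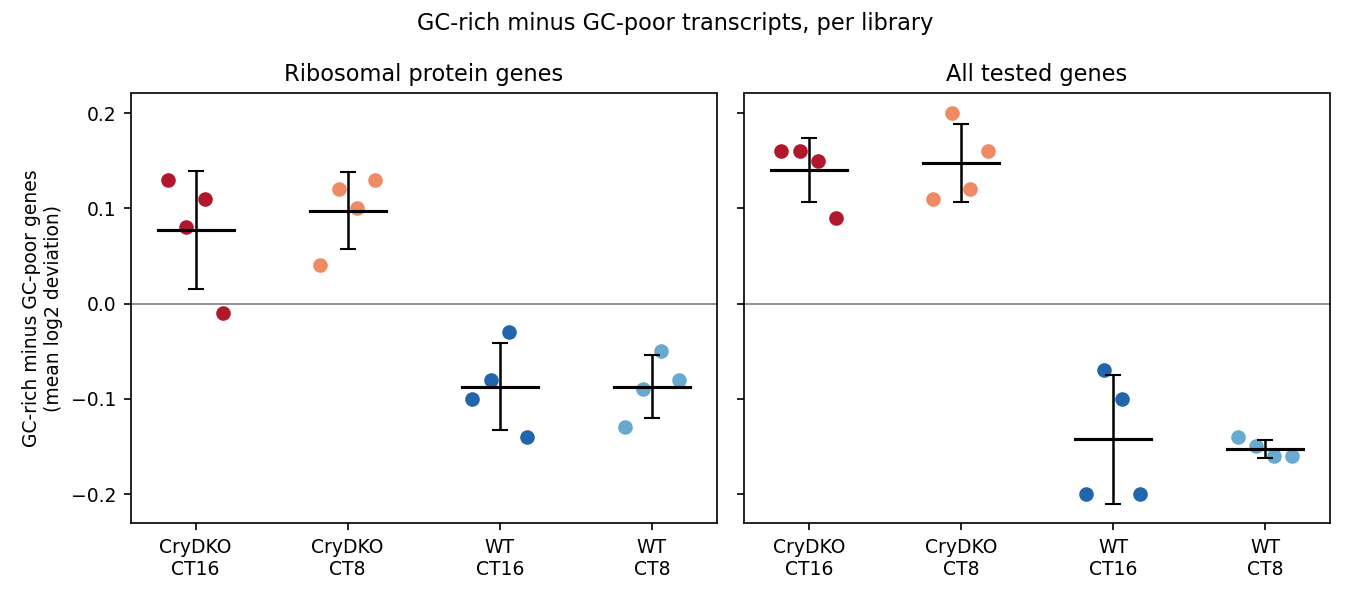
Mean log2 deviation of the GC-rich genes minus that of the GC-poor genes, per library by group, for the 74 members on the left and all tested genes on the right; points are libraries, lines the mean and bars the SD of 4 libraries. All CryDKO libraries lie above all WT libraries in both panels, with a wider gap over all genes.

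To ask the same of livers dosed at CT16, CryDKO CT16 was set against WT CT16. Of the 75 members, 2 passed in edgeR's test, where 18.2% of all tested genes did. The median log2 change was +0.09 for the members and -0.01 for all tested genes. Rpl8 had 454, 474, 470.3 and 637 CPM in CryDKO CT16, against 287, 386, 325 and 313 CPM in WT CT16. The groups did not overlap, and library 14 was far above the other CryDKO CT16 libraries. The log2 change was +0.64 ± 0.16 (edgeR adjusted p = 0.0109), kept in all 16 fits with 1 library left out, but the adjusted p was 0.0928 with the GC trend removed. Rpl39, a small protein of the exit tunnel, had 65.1, 88.0, 62.4 and 56.0 CPM in CryDKO CT16, against 65.8, 105, 87.7 and 153 CPM in WT CT16. These groups overlapped, WT CT16 library 8 was the highest, and the log2 change of -0.60 ± 0.20 (edgeR adjusted p = 0.0461) lost its call in 9 of the 16 fits, including the one without that library.

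Of the other members called at CT8, none passed at CT16. Rplp2 changed by +0.43 ± 0.17 (edgeR adjusted p = 0.0919), Rplp1 by +0.27 ± 0.16 (edgeR adjusted p = 0.268) and Rplp0 by +0.20 ± 0.16 (edgeR adjusted p = 0.41). Rpl3 changed by +0.17 ± 0.15 (edgeR adjusted p = 0.46). Rps24 had 163, 209, 178 and 140.2 CPM in CryDKO CT16, against 147, 224, 185 and 402 CPM in WT CT16. Its WT CT16 libraries spread widely, with library 8 at the level of the WT CT8 libraries, and the log2 change was -0.47 ± 0.25 (edgeR adjusted p = 0.202). The number of calls moved between 1 and 6 when 1 library was left out, the most without WT CT16 library 5, where 15.8% of all tested genes passed. Without WT CT16 library 8, 1 member passed, where 12.9% of all tested genes did.

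Dosing time was compared within each genotype. In CryDKO livers, CT16 against CT8 gave 0 calls among the members and 0 over all tested genes in edgeR, which is a background of 0%. At an unadjusted p under 0.05 there were 0 members and 938 of all tested genes, and DESeq2 called 0 members and 13 genes in all (0.0844%). The members with the lowest p did not pass. They were Rpl9 with -0.39 ± 0.22 (edgeR adjusted p = 0.802), Rpl3 with -0.25 ± 0.15 (edgeR adjusted p = 0.814) and Rps28 with -0.32 ± 0.21 (edgeR adjusted p = 0.819). Rpl9 had 182, 237, 162 and 145 CPM in CryDKO CT16, against 256, 244, 258 and 195 CPM in CryDKO CT8, and the groups overlapped. The median log2 change of the members was -0.07, against 0.00 for all tested genes.

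In WT livers, CT16 against CT8 gave 1 call among the members, a lower one, where 2.53% of all tested genes passed and 1.30% were lower. Rps24 had 147, 224, 185 and 402 CPM in WT CT16, against 411, 359, 538 and 628 CPM in WT CT8. The WT CT16 libraries 5, 6 and 7 were below every WT CT8 library and library 8 lay among them. The log2 change was -1.01 ± 0.25 (edgeR adjusted p = 0.0441), and the call was lost in 9 of the 16 fits with 1 library left out. Without WT CT16 library 8, 15 members passed, 1 higher and 14 lower, where 24.4% of all tested genes did, 12.9% higher and 11.5% lower. The higher one was Rpl23, and the lower ones included Rps24, Rps25, Rpl35, Rpl35a, Rpl17, Rpl26 and Rpl34, named after their values were seen. DESeq2 with all 16 libraries called 5 lower and 0 higher, where 4.69% of all genes it tested were lower.

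Whether the effect of dosing time differed between the genotypes was tested as an interaction. No member passed, and 6 of the 14484 tested genes did (0.0414%). DESeq2 also called 0 members, against 0.954% of its genes. In edgeR, 7 of the 75 members and 1927 of the 14484 tested genes had an unadjusted p under 0.05. The lowest p were those of Rpl3, with a difference of -0.60 ± 0.22 between the log2 changes (edgeR adjusted p = 0.276), Rpl26 with +0.66 ± 0.26 (edgeR adjusted p = 0.299) and Rpl35a with +0.74 ± 0.31 (edgeR adjusted p = 0.318). Without WT CT16 library 8, 3 members passed, Rpl34, Rps12 and Rps24, all with a positive difference, where 3.86% of all tested genes did and 1.87% had a positive difference. The larger number of calls at CT8 than at CT16 is thus not shown to be a difference between the dosing times.

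Genes that build or use ribosomes were counted in the same fits. The lists were chosen with earlier results known, and their counts carry no test. Of 42 ribosome biogenesis genes, 14 were higher and 0 lower in CryDKO than in WT livers at CT16, and 21 were higher and 1 lower at CT8. Over all 14484 tested genes, 1303 were higher and 1326 lower at CT16, and 2706 were higher and 2943 lower at CT8. Bop1, which matures the large subunit, changed by +1.03 ± 0.14 at CT16 (edgeR adjusted p = 7.55e-05) and by +0.97 ± 0.14 at CT8 (edgeR adjusted p = 6.21e-05). Bysl, which matures the small subunit, changed by +1.22 ± 0.21 at CT16 (edgeR adjusted p = 0.00088) and by +1.24 ± 0.21 at CT8 (edgeR adjusted p = 0.000294). With library size alone the list had 4 higher and 1 lower at CT16, and 6 higher and 3 lower at CT8, where all tested genes had 605 higher and 1883 lower at CT16, and 961 higher and 5127 lower at CT8. With the GC trend removed it had 9 higher and 0 lower at CT16, and 16 higher and 1 lower at CT8, where the 13588 genes of that fit had 681 higher and 742 lower at CT16, and 2292 higher and 2127 lower at CT8. Its median log2 change was +0.39 at CT16 and +0.40 at CT8, against +0.09 and -0.06 for the ribosomal proteins.

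Initiation factors counted 13 higher and 1 lower of 26 at CT8, and 5 higher and 2 lower at CT16. The background over all tested genes was 18.7% higher and 20.3% lower at CT8, and 18.2% passed at CT16. Eif6, which keeps free large subunits from joining, changed by +1.36 ± 0.19 at CT8 (edgeR adjusted p = 6.25e-05), and Eif3b, a scaffold of the eIF3 complex, by +1.01 ± 0.15 (edgeR adjusted p = 0.000105). At CT16, Eif4a2 was lower by -0.92 ± 0.17 (edgeR adjusted p = 0.00141) and Eif3b higher by +0.69 ± 0.15 (edgeR adjusted p = 0.0047). With library size alone the initiation factors had 9 higher and 5 lower at CT8, where 6.63% of all tested genes were higher and 35.4% lower. Among 19 translation factors with known TOP mRNAs, 6 were higher and 1 lower at CT8, where library size alone gave 2 higher and 4 lower. Eef2, the factor that moves the ribosome along the mRNA, averaged 2254 ± 279.9 CPM in CryDKO CT8 and 988 ± 91.3 CPM in WT CT8 (SD, n = 4 each). Its log2 change was +1.19 ± 0.19 at CT8 (edgeR adjusted p = 0.000142) and +0.74 ± 0.19 for CT16 against CT8 in WT livers (edgeR adjusted p = 0.0441).

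Regulators of TOP mRNAs and mTOR went both ways, with 6 higher and 4 lower of 19 at CT8 and 3 higher and 1 lower at CT16. Library size alone gave 2 higher and 5 lower at CT8. For every list in this paragraph, the background over all tested genes was 18.7% higher and 20.3% lower at CT8, and 18.2% passed at CT16. Under library size alone it was 6.63% higher and 35.4% lower at CT8, and 17.2% passed at CT16. Rictor was lower at CT8, with a log2 change of -0.84 ± 0.17 (edgeR adjusted p = 0.00103). Ddit4, an inhibitor of mTOR complex 1, changed by +2.71 ± 0.51 at CT8 (edgeR adjusted p = 0.00135). Eif4ebp3, a translation repressor of the 4E-BP family, changed by +2.03 ± 0.30 at CT16 (edgeR adjusted p = 0.000386) and by +1.32 ± 0.29 at CT8 (edgeR adjusted p = 0.00244). The 78 mitochondrial ribosomal protein genes had 12 higher and 9 lower at CT8, and 4 higher and 3 lower at CT16. Scaled by library size alone, they had 2 higher and 30 lower at CT8, and 2 higher and 7 lower at CT16. Their sum was 2231 to 2782 CPM in CryDKO CT16, 2267 to 2740 CPM in CryDKO CT8, 2196 to 2705 CPM in WT CT16 and 2244 to 2728 CPM in WT CT8, overlapping in all groups. Of 9 tested paralogs outside the rule, Rps27l, a p53 target, was lower at CT8 by -1.39 ± 0.26 (edgeR adjusted p = 0.000685), and Rps4l was higher by +1.11 ± 0.28 (edgeR adjusted p = 0.00601). The 6 tested pseudogene rows had a median log2 change of -0.10 at CT8 and -0.07 at CT16, and edgeR called none of them. Among 15 p53 targets, 5 were higher and 0 lower at CT16, and 4 higher and 1 lower at CT8, where Mdm2 changed by -0.79 ± 0.20 (edgeR adjusted p = 0.00398) and Cdkn1a by +1.38 ± 0.38 (edgeR adjusted p = 0.0111). Scaled by library size alone, these targets had 2 higher and 0 lower at CT16, and 1 higher and 3 lower at CT8.

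Markers of several cell types moved with genotype too, where 18.7% of all tested genes were higher and 20.3% lower at CT8. At CT16, 18.2% of all tested genes passed. The 8 hepatocyte markers summed to 102769 to 156904 CPM in CryDKO CT16, 103660 to 138720 CPM in CryDKO CT8, 54220 to 95257 CPM in WT CT16 and 50202 to 61532 CPM in WT CT8, with 5 of 8 higher at CT8 and none at 0. At CT16, 2 of the 8 hepatocyte markers were higher. Stellate and fibroblast markers summed to 125 to 243 CPM in CryDKO CT8 and 98.8 to 139 CPM in WT CT8, with 4 of 7 higher and none at 0. Their sums also overlapped at CT16, at 46.6 to 143 CPM in CryDKO and 64.0 to 148 CPM in WT, with 2 of 7 higher. Of the 8 macrophage markers, 1 was higher at CT8 and 3 at CT16. Their sums were 90.9 to 167 CPM in CryDKO CT16, 59.2 to 147 CPM in CryDKO CT8, 23.7 to 91.2 CPM in WT CT16 and 52.1 to 75.6 CPM in WT CT8. Of 5 cholangiocyte markers, 2 were higher and 0 lower at CT8, and 1 was higher and 1 lower at CT16. None of the 6 sinusoidal endothelium markers or the 3 tested neutrophil markers passed at CT8, and 1 endothelium marker was higher at CT16. Erythroid markers had 1 higher and 1 lower of 2 tested at CT8, and markers of proliferating cells 0 higher and 1 lower of 4 tested. The higher erythroid marker, Hbb-bs, averaged only 0.46 CPM in CryDKO CT8 and 0.08 CPM in WT CT8. It was also called higher at CT16, again at very low levels. B-cell and T- or NK-cell markers summed to under 2 CPM in every library, and none of them passed the filter on low counts. The part of cell composition in the differences of the ribosomal protein genes was not tested.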

How the data were processed

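Liver poly(A) RNA was sequenced as 150 bp read pairs in 16 libraries. Per the submitters' processing notes, the tools were FastQC, Trimmomatic 0.35, STAR 2.5.3, HTSeq 1.99.2 and DESeq2, with build GRCm39; no source used here gives annotation, strand setting or parameters. The deposited counts are whole reads per gene, not normalized. The deposited normalized signal is, from its values, those counts divided by 1 size factor per library, listing 19592 genes, each with 10 or more reads over all libraries. Columns carry running numbers 1 to 16 and were mapped to groups only; these numbers name the libraries in the text. Counts of the 24 pairs of libraries within groups differed by far more than sampling noise (chi-square divided by its degrees of freedom, 20.2 to 136.4).

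Genes kept by filterByExpr (14484) were fitted in edgeR 4.0.16 (R 4.3.3; TMM, robust quasi-likelihood, 1 coefficient per group, two-sided) and adjusted by Benjamini-Hochberg; the test was checked on simulated counts. Limma 3.58.1 and DESeq2 1.42.0 served as alternatives, and fits with a GC or length trend removed were added after seeing the data. GC content and length came from GENCODE vM21, for 93.8% of tested genes. Named members were, per comparison, up to 6 higher and 6 lower with the lowest adjusted p (3 with the lowest p where none passed), the P-stalk genes, Rpsa, Rpl5, Rpl11, Rps6 and the extremes of level; from each related list, up to 3 called genes. Members and lists were chosen with earlier results of these data known. Counts and sums cover all members; the individual values of some genes are not reported here.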

Additional observations from a re-analysis of the deposited data

Results flagged for a closer look

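Within a group of 4, one library stood apart from the others by Dixon's criterion in 6 of 100 sets of 4 libraries, for 24 named members and the sum over all members in 4 groups; chance alone flags about 1 group in 20. In CryDKO CT16, library 14 was high for Rpl8, with 637 CPM against 454 to 474 CPM in the others, and for Rps6, with 502 CPM against 255 to 288 CPM. In CryDKO CT8, library 16 was low for Rpl23, with 244 CPM against 309 to 315 CPM, and for Rps15a, with 91.9 CPM against 116 to 118 CPM. In WT CT8, library 1 was high for Rplp2, with 136 CPM against 108 to 111 CPM, and library 2 was low for Rpsa, with 479 CPM against 589 to 609 CPM. The call of Rpl8 at CT16 was kept without library 14, and those of Rpl23 and Rplp2 at CT8 without the libraries named here.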

How the results depend on the processing

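No paired analysis was possible because the columns carry running numbers and no replicate numbers. For CT16 against CT8 in WT, the count of 1 member became 5 with DESeq2, 4 with limma voom, 3 with the length trend removed, 2 with library size alone, neither of them Rps24, and 0 with only the 2 groups fitted. For CryDKO against WT at CT16, the count of 2 became 1 with limma voom, with limma on the deposited normalized values, with only the 2 groups fitted and without the robust option, 0 with the GC trend removed and 5 with the length trend removed. With library size alone, the median log2 change of CryDKO against WT at CT8 became -0.39, its difference in the sum -0.34, and that of CT16 against CT8 in WT -0.39. The cause was not tested; under library size alone the median of all genes moved with them.

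With each library left out in turn, calls ranged from 12 to 23 for CryDKO against WT at CT8, 1 to 6 at CT16, 0 to 15 for CT16 against CT8 in WT, 0 to 0 in CryDKO and 0 to 3 for the interaction. Medians ranged from -0.11 to 0.06, -0.02 to 0.20, -0.22 to 0.01, -0.14 to -0.01 and -0.11 to 0.16 in the same order. Differences in the sum ranged from -0.08 to 0.09, -0.02 to 0.20, -0.23 to 0.00 and -0.12 to 0.02. The lowest count at CT8 came without CryDKO CT8 library 15, and the counts of 15 and 3 without WT CT16 library 8. Leaving out WT CT16 library 8 also gave the sum differences of -0.23 in WT and 0.20 at CT16. For single named members, 716 of 740 values under other settings kept direction and side of the threshold. Of the rest, 17 lost their call, 7 gained one and 0 changed direction while called. With 1 library left out in turn, 1069 of 1104 values were kept, 32 lost their call, 3 gained one and 0 changed direction while called. Both totals include members not called in a comparison, for which staying uncalled counts as kept. They therefore do not measure how stable the calls were. With 4 libraries per group, members with a log2 change near 0.4 to 0.5 sat close to the threshold.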
